A study of Mus musculus with 9 samples.

Results

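Expression of 10 genes of the NF-κB system was measured by RNA sequencing in cultured mouse adipose-derived stem cells (ASCs) of 3 depots, and the genes were found in the deposited count table by their symbols. They are 4 of the transcription factors themselves (Nfkb1, Nfkb2, Rela and Relb), the inhibitors Nfkbia and Tnfaip3, the signalling adaptors Birc3 and Traf1, the ligand Tnf and its receptor Tnfrsf1b. These 10 genes were 10 of the 54532 in the table, and all 10 were among the 16526 genes with enough reads for testing.

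ASCs were isolated from adipose tissue of C57BL/6 mice, from a subcutaneous (Sub-ASC), an abdominal (Ab-ASC) or a perivascular (PVASC) depot. They were expanded in stem cell medium with serum, leukemia inhibitory factor and fibroblast growth factor. Cells were harvested over a range of passages, and the paper does not give the passage of each library. Each group had 3 libraries, with 9 in all. The groups differed by depot, and the labels name no treatment or genetic change for any of them. The age and sex of the mice are not given in the sources used here. Nor is it stated whether the libraries of a group came from separate animals or cultures. The p-values therefore set differences against a spread between libraries, estimated over all 9, that may be technical. The sequencing question was how PVASCs differ from ASCs of the other depots.

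NF-κB factors are held in the cytoplasm by inhibitory IκB proteins and enter the nucleus when inflammatory receptors are engaged. In the canonical arm of the pathway, the IκB kinase complex marks IκBα (encoded by Nfkbia) for destruction and releases dimers of RelA and p50, the latter processed from the Nfkb1 product. In the non-canonical arm, the kinase NIK drives processing of the Nfkb2 product to p52, which pairs with RelB. Nfkbia, Tnfaip3, Birc3, Traf1, Tnf, Nfkb1, Nfkb2 and Relb are themselves known targets of NF-κB, so that the transcription of inhibitors closes a negative feedback loop. In adipose tissue the pathway is known for its part in the inflammation that accompanies obesity.

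Library totals were 27136829 to 29881036 reads in PVASC, 20524173 to 23832828 in Ab-ASC and 23781019 to 26872579 in Sub-ASC cultures, so that 3 reads stood for 0.0917 to 0.161 CPM (read counts scaled by the TMM-adjusted total of the tested genes). The spread between libraries, as the biological coefficient of variation, was lowest in PVASCs (3.85%), higher in Sub-ASCs (5.70%) and highest in Ab-ASCs (12.4%). Ab-ASC replicate 1 stood apart from the other libraries of its group, and without it the spread in Ab-ASCs was 5.07%. Without that library 9 of the 10 genes were called between PVASCs and Ab-ASCs, as with it, and 10 instead of 8 between Ab-ASCs and Sub-ASCs, with Rela and Nfkbia added. None of the 8 stromal markers (Ly6a, Thy1, Eng, Cd44, Pdgfra, Pdgfrb, Cd34 and Nt5e) was at 0 in any group, and their summed level was 2550 to 2651 CPM in PVASC, 1889 to 2000 in Ab-ASC and 6155 to 6193 in Sub-ASC cultures, there mostly Ly6a and Pdgfra. Of the 8, 5 were lower in PVASCs relative to Sub-ASCs, and Thy1, Eng and Cd44 were higher. Levels are given as CPM after scaling of the library sizes by the trimmed mean of M-values (TMM), and errors of means are SDs over 3 libraries. Fold changes and adjusted p-values are from the quasi-likelihood test of edgeR, and p-values were adjusted over all 16526 genes by the Benjamini-Hochberg method. A gene was called at an adjusted p of at most 0.05.

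Short DNA stretches that NF-κB dimers can bind, known as κB motifs, occur before the start of some of the genes that the factors control. The κB consensus, a degenerate motif of 10 bases, was searched on both strands in the 250 bases before RefSeq transcription starts (GRCm38.p6), where 2382 of 32851 windows (7.25%) held a match. Of the genes, 8 had a window, and 3 of these had a match in at least 1 of them: Nfkb2, Nfkbia and Tnfaip3. Counted by window, as the 7.25% is, 5 of the 11 windows of these 8 genes held a match. No window was held for Nfkb1 and Relb. Windows that end just before the first base of the listed gene are shown for Nfkb2 (chr19:46304487-46304736, plus strand) and Nfkbia (chr12:55492648-55492897, minus strand), because a factor gene and an inhibitor gene carry the motif close to their starts. Capitals mark the matched bases.
Nfkb2: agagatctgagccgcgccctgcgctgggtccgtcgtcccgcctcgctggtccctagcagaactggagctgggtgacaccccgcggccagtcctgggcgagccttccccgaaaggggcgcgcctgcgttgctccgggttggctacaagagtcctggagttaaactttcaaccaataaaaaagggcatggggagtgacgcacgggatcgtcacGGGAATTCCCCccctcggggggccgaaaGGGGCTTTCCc
Nfkbia: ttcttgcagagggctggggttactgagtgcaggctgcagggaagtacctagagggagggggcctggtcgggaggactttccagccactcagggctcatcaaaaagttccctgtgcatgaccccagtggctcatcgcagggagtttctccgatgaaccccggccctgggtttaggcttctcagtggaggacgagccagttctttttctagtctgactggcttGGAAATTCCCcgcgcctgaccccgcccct
In Nfkb2, matches began 39, 38 and 11 bases before the start, and those at 39 and 38 overlap. The windows of its other RefSeq starts held 1 match each. In Nfkbia the match began 29 bases before the start. Of the 2 Tnfaip3 windows, which lie wholly or almost wholly within the listed gene and are not shown, 1 had matches beginning 125 and 12 bases before its RefSeq start and the other had none. A match is a description of letters and is no measurement of binding in these cells.

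In PVASCs, 9 of the 10 genes were lower than in Sub-ASCs and 9 of the 10 were lower than in Ab-ASCs, and none was called higher. The genes not called were Nfkb2 against Sub-ASCs and Traf1 against Ab-ASCs. Among all genes tested, 70.4% were called between PVASCs and Sub-ASCs, 35.7% as lower and 34.7% as higher in PVASCs. Between PVASCs and Ab-ASCs, 56.9% were called, 32.1% as lower and 24.7% as higher. The 10 genes had a median log2 fold change of -0.81 against Sub-ASCs, where the median of all genes was -0.01, and -0.78 against Ab-ASCs, where it was -0.06. Both comparisons use the same PVASC libraries and are not independent of each other. The changes ranged from -2.62 to -0.00 against Sub-ASCs and from -2.10 to 0.25 against Ab-ASCs.

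A change of at least 2-fold was called for 5 of the 10 genes against Sub-ASCs (Relb, Nfkbia, Birc3, Traf1 and Tnf), beside 32.2% of all genes, and for Relb and Tnf against Ab-ASCs, beside 15.4%. The libraries of the groups did not overlap for 9 of the 10 genes in each of the PVASC comparisons, in each case with PVASCs lower. Among all tested genes 77.3% did not overlap against Sub-ASCs, 39.0% with PVASCs lower, and 63.9% did not overlap against Ab-ASCs, 35.6% with PVASCs lower. Ab-ASCs and Sub-ASCs differed in both directions. Nfkb1, Nfkb2, Relb and Tnfaip3 were higher in Ab-ASCs, Birc3, Traf1, Tnf and Tnfrsf1b were lower, and Rela and Nfkbia were not called. In that comparison 75.3% of all genes were called, 37.0% as higher and 38.3% as lower in Ab-ASCs, and 37.8% with at least 2-fold, which among the 10 genes held for Birc3 and Traf1. Their median there was -0.11 on the log2 scale, beside -0.03 for all genes.

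**Figure D1:**
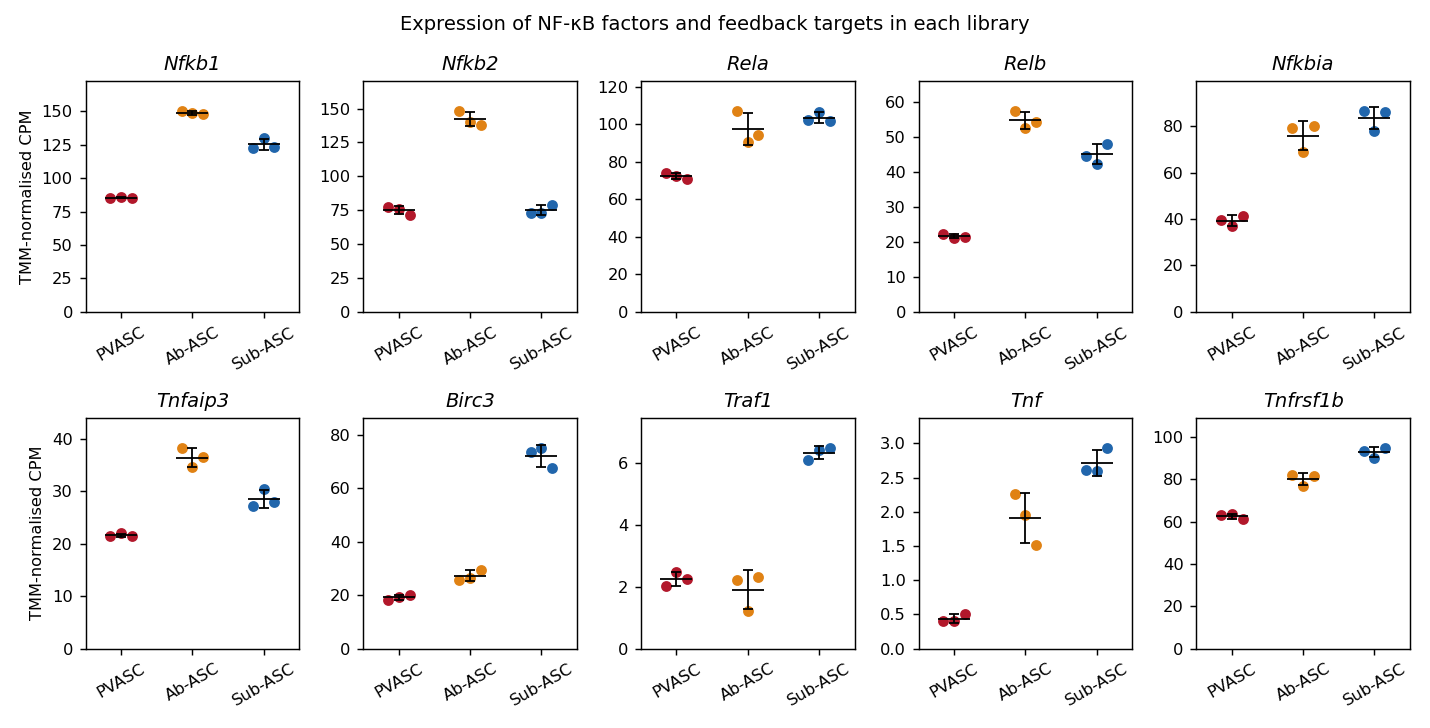
TMM-normalised CPM (vertical axes, from 0) of each of the 10 genes in PVASC, Ab-ASC and Sub-ASC libraries, with points for libraries, long bars for the mean and short bars for the SD of 3 libraries. PVASC libraries were the lowest of the 9 for every gene except Nfkb2 and Traf1, for example 21.05 to 22.3 CPM for Relb against 42.4 to 57.4 in the other groups.

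Among the factors, Nfkb1, which encodes the precursor of p50, lies on the minus strand of chromosome 3 (ENSMUSG00000028163, chr3:135584655-135691547, GRCm38). The listed transcript Gm43430 lies within it on the same strand and had at most 14 reads in any library. Nfkb1 had 85.0, 85.8 and 85.3 CPM in PVASC libraries, 150, 148 and 148 CPM in Ab-ASC libraries and 123, 130 and 123 CPM in Sub-ASC libraries. The groups did not overlap, with PVASCs lowest and Ab-ASCs highest. Nfkb1 was 1.47-fold lower in PVASCs than in Sub-ASCs (adjusted p = 4.42e-07) and 1.74-fold lower than in Ab-ASCs (adjusted p = 5.08e-08). In Ab-ASCs it was 1.19-fold higher than in Sub-ASCs (adjusted p = 0.000502).

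Rela, which encodes the transactivating partner of p50, lies on the plus strand of chromosome 19 (ENSMUSG00000024927, chr19:5637483-5648130). Its level was 73.9, 72.6 and 71.0 CPM in PVASC libraries, 107, 90.6 and 94.1 CPM in Ab-ASC libraries and 102, 107 and 102 CPM in Sub-ASC libraries. All PVASC libraries lay below the other 6, whereas Ab-ASC and Sub-ASC libraries overlapped. It was 1.43-fold lower in PVASCs than in Sub-ASCs (adjusted p = 1.44e-05) and 1.34-fold lower than in Ab-ASCs (adjusted p = 0.000166). Between Ab-ASCs and Sub-ASCs the log2 difference was -0.09 ± 0.06 (SE, adjusted p = 0.219), and without Ab-ASC replicate 1 it was called at -0.16 (adjusted p = 0.00576).

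Nfkb2, the precursor of p52, also lies on chromosome 19, on the plus strand (ENSMUSG00000025225, chr19:46304737-46312090). Its last 4 bases overlap Psd on the opposite strand, and since the counting is not stated to use strand, reads there cannot be told apart. In GENCODE M21, where Nfkb2 is longer at both ends and the antisense gene AC114539.1 begins within it, 830 of its 4584 exon bases (18.1%) overlap AC114539.1 or Psd. Nfkb2 had 77.4, 75.7 and 71.6 CPM in PVASC libraries, 148, 140 and 138 CPM in Ab-ASC libraries and 73.2, 72.9 and 79.2 CPM in Sub-ASC libraries. Ab-ASC libraries stood above the other 6, and those of PVASCs and Sub-ASCs overlapped. The level in Ab-ASCs was 1.90-fold that in PVASCs (adjusted p = 7.10e-08) and 1.89-fold that in Sub-ASCs (adjusted p = 1.86e-08). PVASCs and Sub-ASCs had means of 74.9 ± 3.001 and 75.1 ± 3.54 CPM, with an SE of the log2 difference of 0.06 (adjusted p = 0.950).

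Relb, which encodes the partner of p52, lies on the minus strand of chromosome 7 (ENSMUSG00000002983, chr7:19606217-19629438). It had 22.3, 21.05 and 21.5 CPM in PVASC libraries, 57.4, 52.6 and 54.2 CPM in Ab-ASC libraries and 44.7, 42.4 and 48.1 CPM in Sub-ASC libraries. The 3 groups did not overlap, in the same order as for Nfkb1. Relb was 2.08-fold lower in PVASCs than in Sub-ASCs (adjusted p = 2.03e-08) and 2.53-fold lower than in Ab-ASCs (adjusted p = 9.71e-09), the largest difference among the 4 factors in each comparison. In Ab-ASCs it was 1.21-fold higher than in Sub-ASCs (adjusted p = 0.00187).

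The fifth member of the family, Rel (c-Rel), had a higher level in PVASCs than in Sub-ASCs, at 11.02 ± 0.564 against 6.71 ± 0.937 CPM (adjusted p = 0.00383). In Ab-ASCs it had 10.3 ± 3.27 CPM. To set the factors beside each other, counts were divided by gene length, and each factor was given as a percentage of the sum of the 5. Per listed length, Rela held 42.0% ± 0.158 in PVASC, 33.5% ± 1.41 in Ab-ASC and 45.4% ± 1.30 in Sub-ASC cultures. Nfkb2 held 35.8% ± 0.623, 40.5% ± 0.581 and 27.2% ± 1.01 in the same order, so that Nfkb2 was the most abundant factor transcript per length in Ab-ASCs and Rela in the others. Relb made up 8.76% ± 0.225 in PVASCs, against 13.2% ± 0.184 and 13.8% ± 0.810 in Ab-ASCs and Sub-ASCs. Rel made up 2.32% ± 0.133 in PVASC, 1.31% ± 0.457 in Ab-ASC and 1.07% ± 0.144 in Sub-ASC cultures.

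The length used matters for these shares. The listed length of Nfkb1 is 12061 bases and that of its principal transcript in GENCODE M21 is 4117 bases, and with principal transcripts its share in PVASCs was 25.1% instead of 11.1%. With those lengths, an alternative chosen after seeing the data, Nfkb2 remained the leading factor in Ab-ASCs (31.6%) and Rela in PVASCs (32.3%) and Sub-ASCs (33.5%). Differences between groups in the share of Relb had the same direction on both scales, at 11.9% in PVASC, 17.3% in Ab-ASC and 17.9% in Sub-ASC cultures.

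**Figure D2:**
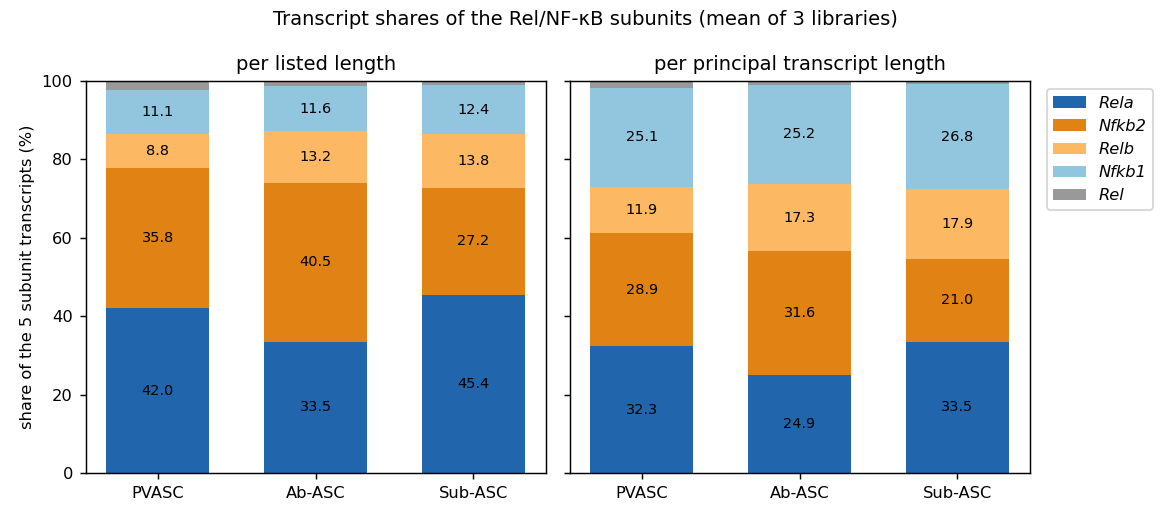
Share of each Rel/NF-κB subunit in the summed transcripts of the 5 (percent, vertical axis), per listed gene length at the left and per principal transcript length at the right, as the mean of 3 libraries per group. Nfkb2 held 40.5% in Ab-ASCs and 27.2% in Sub-ASCs per listed length, and the share of Relb was lowest in PVASCs on both scales.

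Ratios of genes within a library do not depend on library scaling. The log2 ratio of Relb to Rela per listed length was -2.24, -2.30 and -2.24 in PVASCs, -1.41, -1.30 and -1.31 in Ab-ASCs and -1.71, -1.85 and -1.60 in Sub-ASCs. Each group was apart from the others, with PVASCs lowest. The ratio of Nfkb2 to Nfkb1 averaged 1.68 ± 0.06 in PVASC, 1.81 ± 0.04 in Ab-ASC and 1.14 ± 0.10 in Sub-ASC cultures on the log2 scale per listed length, again without overlap. With principal transcript lengths these means were 0.20, 0.33 and -0.35, so that the sign in Sub-ASCs turned and whether Nfkb2 exceeded Nfkb1 there depended on the length used, while the differences between groups stayed the same by construction. In exact permutation tests (two-sided, 3 against 3 libraries) each pair of groups reached p = 0.1, the smallest that this design allows, and the adjusted value over 12 tests was 0.109.

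Nfkbia, the gene of IκBα, lies on the minus strand of chromosome 12 (ENSMUSG00000021025, chr12:55489410-55492647), and its promoter window carries the κB match shown with the sequences. It had 39.6, 37.0 and 41.4 CPM in PVASC libraries, 79.2, 68.9 and 80.0 CPM in Ab-ASC libraries and 86.6, 78.2 and 86.0 CPM in Sub-ASC libraries. All PVASC libraries were below the other 6, which overlapped. Nfkbia was 2.12-fold lower in PVASCs than in Sub-ASCs (adjusted p = 4.66e-08) and 1.93-fold lower than in Ab-ASCs (adjusted p = 6.09e-07). Between Ab-ASCs and Sub-ASCs the log2 difference was -0.14 ± 0.07 (SE, adjusted p = 0.111), and it was called without Ab-ASC replicate 1 (adjusted p = 0.0324), with at least 10 reads required in every library (adjusted p = 0.0379) and with a replicate block (adjusted p = 0.0440).

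IκBα binds dimers that contain RelA. The log2 ratio of Nfkbia to Rela per listed length averaged -0.13 ± 0.10 in PVASC, 0.40 ± 0.11 in Ab-ASC and 0.45 ± 0.12 in Sub-ASC cultures. PVASC libraries did not overlap with either other group (exact permutation p = 0.1, adjusted 0.109), whereas those of Ab-ASCs and Sub-ASCs did (exact permutation p = 1).

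Tnfaip3 encodes A20, a ubiquitin-editing enzyme that ends signalling from TNF and Toll-like receptors, and lies on the minus strand of chromosome 10 (ENSMUSG00000019850, chr10:19000910-19015657). It had 21.6, 21.997 and 21.4 CPM in PVASC libraries, 38.3, 34.6 and 36.5 CPM in Ab-ASC libraries and 27.2, 30.5 and 27.9 CPM in Sub-ASC libraries. The 3 groups did not overlap, with the order of Nfkb1 and Relb. It was 1.32-fold lower in PVASCs than in Sub-ASCs (adjusted p = 0.000205), 1.68-fold lower than in Ab-ASCs (adjusted p = 2.05e-06) and 1.28-fold higher in Ab-ASCs than in Sub-ASCs (adjusted p = 0.000464).

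Birc3 encodes cIAP2, a ubiquitin ligase at TNF receptors, and lies on the minus strand of chromosome 9 (ENSMUSG00000032000, chr9:7848699-7873186). It had 18.1, 19.4 and 19.9 CPM in PVASC libraries, 25.8, 26.5 and 29.6 CPM in Ab-ASC libraries and 73.5, 75.1 and 67.4 CPM in Sub-ASC libraries. Sub-ASC libraries stood above the other 6, and PVASC libraries were lowest. Birc3 was 3.76-fold lower in PVASCs than in Sub-ASCs (adjusted p = 1.61e-10), 1.43-fold lower than in Ab-ASCs (adjusted p = 0.000125) and 2.63-fold lower in Ab-ASCs than in Sub-ASCs (adjusted p = 3.02e-09).

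Traf1, an adaptor that binds TRAF2 and the cIAP proteins, lies on the minus strand of chromosome 2 (ENSMUSG00000026875, chr2:34941750-34961772) and was expressed at a low level. It had 2.02, 2.47 and 2.26 CPM in PVASC libraries, 2.20, 1.20 and 2.32 CPM in Ab-ASC libraries and 6.10, 6.41 and 6.48 CPM in Sub-ASC libraries. Sub-ASC libraries were above all others, and PVASC and Ab-ASC libraries overlapped. Traf1 was 2.82-fold lower in PVASCs (adjusted p = 7.64e-06) and 3.34-fold lower in Ab-ASCs (adjusted p = 3.97e-06) than in Sub-ASCs. The log2 difference of PVASCs and Ab-ASCs was 0.25 ± 0.21 (SE, adjusted p = 0.345), and without Ab-ASC replicate 2 it was -0.02.

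Tnf, the inflammatory cytokine, lies on the minus strand of chromosome 17 (ENSMUSG00000024401, chr17:35199381-35202007) and was counted with 12 to 16 reads per library in PVASC, 34 to 44 in Ab-ASC and 61 to 77 in Sub-ASC cultures. These reads came to 0.397, 0.407 and 0.509 CPM in PVASC libraries, 2.25, 1.96 and 1.52 CPM in Ab-ASC libraries and 2.62, 2.59 and 2.94 CPM in Sub-ASC libraries. The groups did not overlap, with PVASCs lowest and Sub-ASCs highest. Tnf was 6.15-fold lower in PVASCs than in Sub-ASCs (adjusted p = 4.21e-07) and 4.30-fold lower than in Ab-ASCs (adjusted p = 1.66e-05), the largest fold among the 10 genes in both comparisons. Between Ab-ASCs and Sub-ASCs it was 1.43-fold lower (adjusted p = 0.0274), a call that was lost with DESeq2 (adjusted p = 0.0831), without a low-count filter (0.0645), with a replicate block (0.0506) and without Sub-ASC replicate 3 (0.0871), Ab-ASC replicate 2 (0.0538) or Ab-ASC replicate 3 (0.1196).

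Tnfrsf1b encodes TNFR2, a receptor of TNF without a death domain, and lies on the minus strand of chromosome 4 (ENSMUSG00000028599, chr4:145213463-145246870). It had 63.1, 63.4 and 61.2 CPM in PVASC libraries, 82.1, 76.8 and 81.4 CPM in Ab-ASC libraries and 93.6, 90.2 and 94.9 CPM in Sub-ASC libraries. The groups did not overlap, and their order was that of Tnf. It was 1.48-fold lower in PVASCs than in Sub-ASCs (adjusted p = 8.07e-07), 1.28-fold lower than in Ab-ASCs (adjusted p = 0.000132) and 1.16-fold lower in Ab-ASCs than in Sub-ASCs (adjusted p = 0.00281).

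The other TNF receptor, Tnfrsf1a (TNFR1, which carries a death domain), had 220 ± 1.21 CPM in PVASC, 232 ± 19.2 in Ab-ASC and 485 ± 15.6 in Sub-ASC cultures. The log2 ratio of Tnfrsf1b to Tnfrsf1a per listed length was -2.38 ± 0.04 in PVASC, -2.09 ± 0.08 in Ab-ASC and -2.94 ± 0.01 in Sub-ASC cultures, without overlap between groups (exact permutation p = 0.1 for each pair, adjusted 0.109). Tnfrsf1b was therefore lower than Tnfrsf1a per length in all 9 libraries, and least so in Ab-ASCs.

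**Figure D3:**
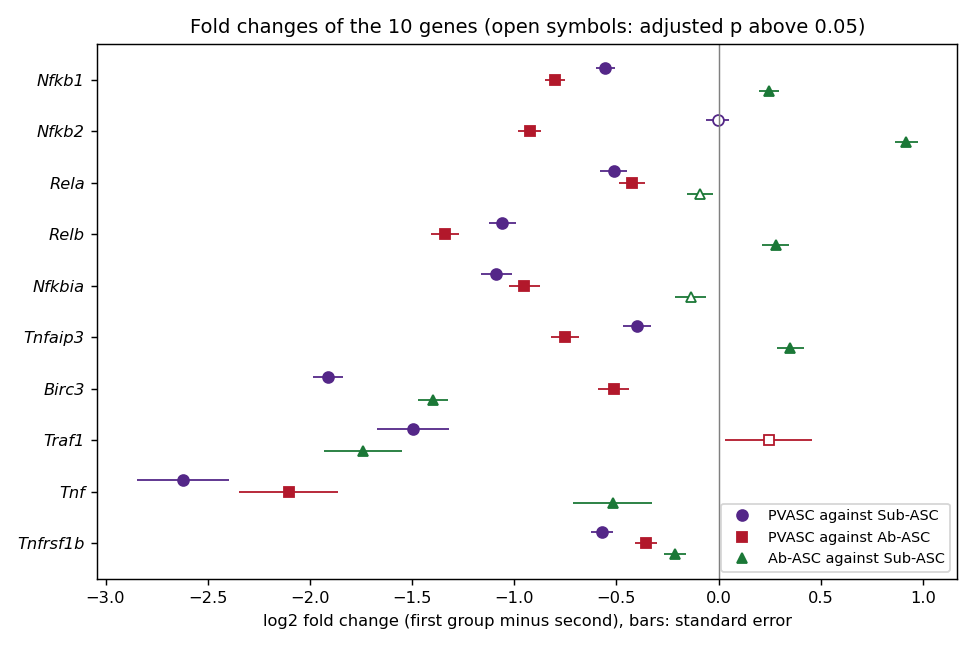
Log2 fold change (horizontal axis) of each of the 10 genes in the 3 comparisons, with bars for the standard error and open symbols for an adjusted p above 0.05. The PVASC comparisons lie at or below 0 for all genes but Traf1 against Ab-ASCs (0.25), and those of Ab-ASCs against Sub-ASCs lie on both sides, from Traf1 at -1.74 to Nfkb2 at 0.92.

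Per listed length, Rela led the 10 genes in PVASCs, at 26.7 FPKM, followed by Nfkbia (24.4) and Nfkb2 (22.8). FPKM was calculated here from the counts, as the TMM-scaled CPM divided by gene length in kilobases. The SDs of these levels were 0.539, 1.39 and 0.912 FPKM, so that Nfkbia and Nfkb2 were not apart beyond their spread. Tnfrsf1b had 16.4 FPKM, Nfkb1 7.08, Relb 5.57, Birc3 3.82 and Tnfaip3 2.999, and Tnf and Traf1 were at 0.267 and 0.255 FPKM, within their SDs of each other. In Ab-ASCs and Sub-ASCs Nfkbia had the highest mean instead, at 47.2 ± 3.87 and 51.9 ± 2.91 FPKM. In Ab-ASCs Nfkb2, at 43.2 ± 1.61 FPKM, overlapped with it, so that their order there was not apart beyond the spread. With principal transcript lengths, Nfkb1 in PVASCs came to 20.7 FPKM and passed Tnfrsf1b, and Traf1 (0.655) passed Tnf (0.267).

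The likeness of expression was described by Pearson's r of log2(CPM + 0.5) over the 9 libraries, which are not independent points because they fall into 3 groups. Among the 16516 other tested genes, the most alike were Ccl7 (r = 0.997) and Mob3c (0.997) for Nfkb1, Cotl1 (0.996) and Pigu (0.995) for Nfkb2, Tmem9b (0.988) and Sidt2 (0.987) for Rela, and Gadd45g (0.998) and Igsf8 (0.998) for Relb. For the feedback genes they were Slc25a45 (0.994) and Ccl9 (0.993) for Nfkbia, Dnmt3l (0.993) and Enc1 (0.990) for Tnfaip3, Gm6665 (0.999) and Ifngr1 (0.998) for Birc3, and Naaa (0.992) and Stom (0.990) for Traf1. For the ligand and receptor they were Hs3st1 (0.996) and Renbp (0.993) for Tnf, and Lamb2 (0.996) and Ppm1h (0.994) for Tnfrsf1b. An r above 0.9 was reached by 391 genes for Nfkb1 and by 2460 for Birc3, the smallest and largest numbers.

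The other genes of the pathway were followed in fixed lists, and the shares of all genes called given above are the background for these counts. Of the 6 other Rel and IκB genes, 1 was higher and 3 were lower in PVASCs than in Sub-ASCs, and the same numbers held against Ab-ASCs. Nfkbie (IκBε) had 9.13 ± 0.200 CPM in PVASC, 26.7 ± 0.234 in Ab-ASC and 26.6 ± 0.819 in Sub-ASC cultures, and was called lower in PVASCs in both comparisons (adjusted p = 4.54e-10 and 2.52e-09 against Sub-ASCs and Ab-ASCs). Nfkbib (IκBβ) followed the order of Nfkb1, at 19.2 ± 0.357, 35.7 ± 2.08 and 26.3 ± 0.909 CPM. Bcl3, a nuclear IκB protein that binds p50 and p52 dimers, was instead high in Sub-ASCs, at 83.8 ± 2.27 CPM, with 20.6 ± 1.79 in PVASCs and 23.7 ± 1.92 in Ab-ASCs.

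Nfkbiz (IκBζ), another nuclear member, had 86.9 ± 2.56 CPM in PVASC, 69.3 ± 5.14 in Ab-ASC and 86.1 ± 4.66 in Sub-ASC cultures, and PVASCs were called higher than Ab-ASCs (adjusted p = 0.00129). Nfkbid, a nuclear IκB protein of low level here, had 0.831 ± 0.256, 1.54 ± 0.337 and 1.28 ± 0.196 CPM in PVASCs, Ab-ASCs and Sub-ASCs. It was called lower in PVASCs than in Ab-ASCs (adjusted p = 0.0166), a call that was lost without Ab-ASC replicate 3 (adjusted p = 0.0788) or PVASC replicate 1 (0.0686).

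Among 11 genes of the IKK complex and its upstream kinases, 7 were lower and 2 higher in PVASCs than in Sub-ASCs, whereas 1 was lower and 2 were higher than in Ab-ASCs, with medians of -0.28 and 0.09 on the log2 scale. Ikbke, an IKK-related kinase, had 15.9 ± 1.68 CPM in PVASC, 19.8 ± 0.592 in Ab-ASC and 74.9 ± 1.97 in Sub-ASC cultures. Ripk1, the kinase recruited to TNFR1, had 49.1 ± 0.786, 46.9 ± 0.727 and 98.1 ± 2.33 CPM. Ikbkg (NEMO), the regulatory subunit of the complex, was 1.29-fold higher in PVASCs than in Ab-ASCs (adjusted p = 0.000154). Tab3, which links TAK1 to ubiquitin chains, was 1.70-fold higher (adjusted p = 0.00121), at 15.9 ± 1.64 CPM in PVASC and 9.23 ± 2.45 in Ab-ASC cultures.

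Of 13 TRAF, IAP and ubiquitin adaptor genes, 10 were lower and 1 was higher in PVASCs relative to Sub-ASCs, and 3 were lower and 1 was higher than in Ab-ASCs. Rnf31 (HOIP), the catalytic subunit of the linear ubiquitin ligase, was 3.10-fold lower in PVASCs than in Sub-ASCs (adjusted p = 8.57e-10), and Myd88, the adaptor of Toll-like and IL-1 receptors, was 2.61-fold lower (adjusted p = 1.77e-08). Xiap, an inhibitor of caspases, was 2.42-fold higher in PVASCs than in Ab-ASCs (adjusted p = 3.81e-05), and Traf2 was 1.29-fold lower (adjusted p = 0.00541). Xiap had 89.8 ± 1.83 CPM in PVASC and 36.9 ± 11.5 in Ab-ASC cultures, a wide spread in the latter.

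Of 11 TNF family ligands and receptors, 10 were tested, and Lta had too few reads (20 to 26 over the libraries of a group). In PVASCs 7 were lower and 2 higher than in Sub-ASCs, and 5 were lower and 2 higher than in Ab-ASCs. The 7 include Ltb, which had few reads outside Sub-ASCs and passed the count filter through that group. Tnfsf11 (RANKL) had 4.44 ± 0.543 CPM in PVASC, 0.594 ± 0.0499 in Ab-ASC and 44.2 ± 2.62 in Sub-ASC cultures. Tnfrsf11b (osteoprotegerin), its decoy receptor, had the opposite order, at 24.1 ± 1.42, 36.4 ± 6.25 and 1.66 ± 0.629 CPM. Tnfrsf11a (RANK), the signalling receptor, had 2.37 ± 0.386, 0.669 ± 0.160 and 1.74 ± 0.132 CPM.

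Tnfrsf12a (the TWEAK receptor Fn14) had 243 ± 8.29 CPM in PVASC, 443 ± 39.4 in Ab-ASC and 31.9 ± 4.91 in Sub-ASC cultures. Its ligand Tnfsf12 (TWEAK) had 7.07 ± 0.239 CPM in PVASC, 9.87 ± 1.85 in Ab-ASC and 11.9 ± 0.780 in Sub-ASC cultures, and Tnfsf13b (BAFF) had 1.89 ± 0.138, 4.73 ± 0.668 and 11.2 ± 0.470 CPM. Ltbr (the lymphotoxin β receptor) had 118 ± 1.64, 130 ± 8.30 and 166 ± 6.67 CPM, and Cd40 1.30 ± 0.604, 3.42 ± 1.05 and 3.20 ± 0.799 CPM. Tnfsf12, Tnfsf13b and Cd40 were called lower in PVASCs against both groups. Ltb was counted with 7 reads over all PVASC libraries, 2 over Ab-ASC and 84 over Sub-ASC libraries.

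Of 9 tested genes of the IL-1 and Toll-like receptor families, 7 were lower and 1 was higher in PVASCs relative to Sub-ASCs, and 3 were lower and 4 higher than in Ab-ASCs. Il33, an alarmin of the IL-1 family, had 662 ± 31.3 CPM in Sub-ASCs, 14.1 ± 0.552 in PVASCs and 6.43 ± 1.37 in Ab-ASCs. Tlr2 was 9.68-fold lower in PVASCs than in Sub-ASCs (adjusted p = 9.64e-12). Il1a was 11.2-fold lower (adjusted p = 2.64e-07) and Tlr4 2.43-fold higher (adjusted p = 4.32e-06) in PVASCs than in Ab-ASCs. Il1b was not tested, with 1 to 10 reads over the libraries of a group.

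Of 9 tested negative regulators beyond Nfkbia and Tnfaip3, 7 were lower and 1 was higher in PVASCs relative to Sub-ASCs, and 4 were lower and 2 higher than in Ab-ASCs. Zc3h12a (regnase-1), a ribonuclease that degrades inflammatory mRNAs, had 20.2 ± 1.71 CPM in PVASC, 91.4 ± 6.72 in Ab-ASC and 73.5 ± 2.70 in Sub-ASC cultures. Irak3, an inhibitor of Toll-like receptor signalling, was 9.37-fold lower in PVASCs than in Sub-ASCs (adjusted p = 1.73e-13). Tax1bp1, a partner of A20, was 1.71-fold higher in PVASCs than in Ab-ASCs (adjusted p = 0.00397), at 134 ± 3.73 against 77.7 ± 26.6 CPM.

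Of 23 tested target genes outside the 10, 15 were lower and 7 higher in PVASCs relative to Sub-ASCs, and 18 were lower and 2 higher than in Ab-ASCs. Their median log2 fold change was -0.96 against Sub-ASCs and -1.21 against Ab-ASCs. The neutrophil chemokine Cxcl1 had 5.16 ± 0.232 CPM in PVASC, 61.6 ± 2.17 in Ab-ASC and 34.3 ± 0.741 in Sub-ASC cultures, and Cxcl2 had 0.316 ± 0.130, 12.8 ± 1.05 and 5.26 ± 0.273 CPM. For Ab-ASCs against Sub-ASCs the targets were split, with 13 higher and 8 lower. Nos2, the inducible nitric oxide synthase, had 235 ± 11.5 CPM in Sub-ASCs, and 20 reads over all PVASC and 43 over all Ab-ASC libraries. Ccl5, also high in Sub-ASCs, had 17.8 ± 1.05 CPM there, 0.511 ± 0.138 in PVASCs and 0.523 ± 0.250 in Ab-ASCs.

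**Figure D4:**
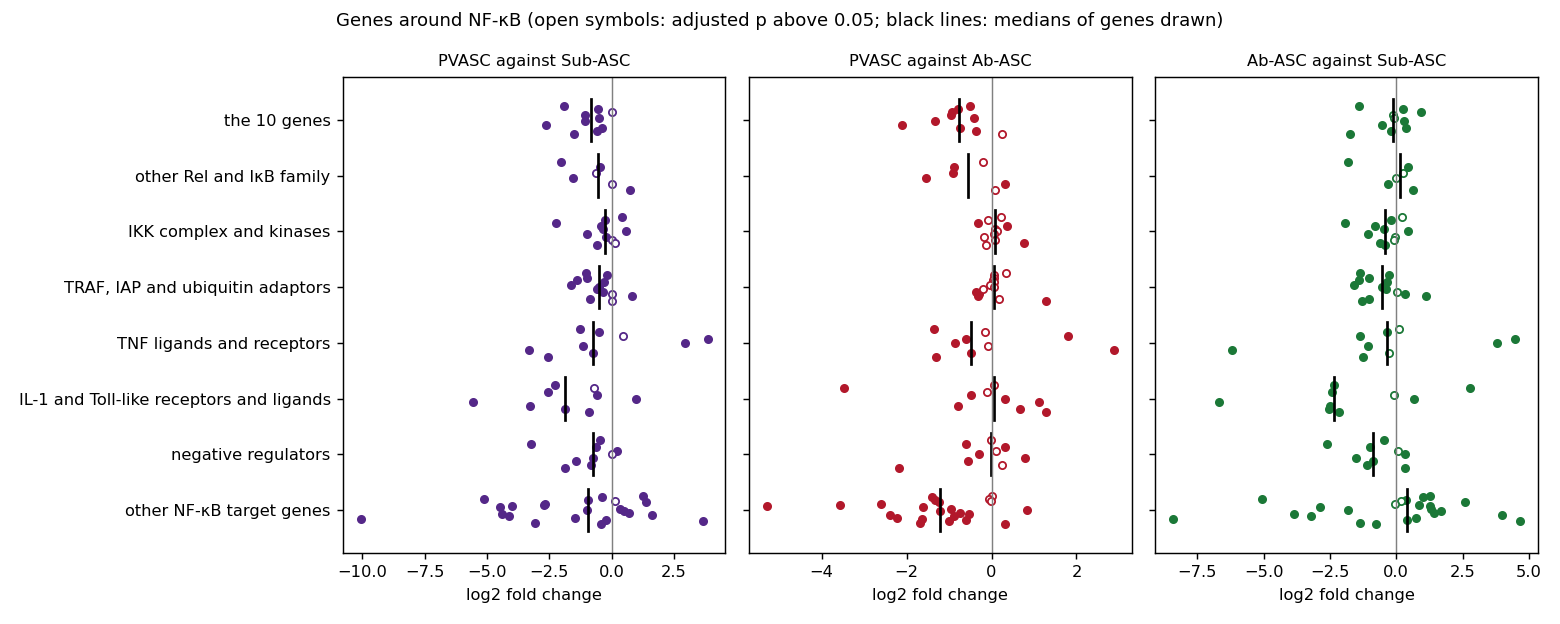
Log2 fold changes (horizontal axes) of the tested genes of each list in the 3 comparisons, with filled symbols for called genes, open symbols for an adjusted p above 0.05, and black lines for medians. Ltb is left out because of its few reads. Of the 23 other target genes, 18 were lower in PVASCs than in Ab-ASCs, whereas the median of the IKK list was 0.09 there.

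Markers of other cells and states moved with these comparisons, and fewer cells of a type cannot be told apart from less RNA per cell in bulk libraries. The 12 markers of leukocytes, cells in which Tnf and Ltb are typically expressed, summed to 312 to 323 CPM in PVASC, 325 to 425 in Ab-ASC and 285 to 293 in Sub-ASC cultures, most of it Lyz2. Of the 10 tested, 8 were lower and 2, Lyz2 and Csf1r, were higher in PVASCs relative to Sub-ASCs. Relative to Ab-ASCs, 4 were lower in PVASCs (Cd68, Csf1r, Itgam and Tyrobp) and 1, Ptprc, was higher. Ptprc (CD45), which defines leukocytes, had 2.81 ± 0.476 CPM in PVASC, 1.41 ± 0.249 in Ab-ASC and 8.94 ± 1.01 in Sub-ASC cultures, and the T cell gene Cd3e was at 0 in all PVASC and Ab-ASC libraries. The part of leukocytes in the level of Tnf was not tested.

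The 10 interferon response genes summed to 60.7 to 62.9 CPM in PVASC, 41.8 to 45.8 in Ab-ASC and 1102 to 1114 in Sub-ASC cultures, and 10 of 10 were lower in PVASCs and in Ab-ASCs than in Sub-ASCs. The 6 proliferation genes summed to 568 to 581 CPM in PVASC, 533 to 623 in Ab-ASC and 52.2 to 57.5 in Sub-ASC cultures, with 6 of 6 higher in PVASCs and in Ab-ASCs than in Sub-ASCs. Endothelial markers (6 genes) summed to 716 to 725 CPM in PVASC, 62.9 to 64.7 in Ab-ASC and 169 to 183 in Sub-ASC cultures, most of it Emcn, Cdh5 and Pecam1 in PVASCs. Of the 6, 5 were higher and 1, Tek, was lower in PVASCs relative to Sub-ASCs, and 6 were higher relative to Ab-ASCs. By flow cytometry, which measures protein and not RNA, the paper reports PVASCs as negative for CD31 (Pecam1) and CD45 (Ptprc). Mesothelial markers (8 genes) summed to 47.9 to 49.7, 122 to 131 and 2.75 to 2.94 CPM, with Lrrn4 and Upk1b at 0 in Sub-ASCs. Their part in the differences of the 10 genes was not tested.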

How the data were processed

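RNA of cultured Sub-ASCs, Ab-ASCs and PVASCs was extracted with Trizol, and libraries were made with the NEBNext Ultra kit, which is not stated here to keep strand. The authors deposited raw read counts per gene for the 9 libraries, without normalization, together with gene length and position. Per the labels, the submitters' processing notes name CASAVA 1.8, Bowtie 0.12.2 and featureCounts 1.5.0-p3, with the builds mm8 and mm10 and no role for either. Positions in the table matched GENCODE M21 (GRCm38) at both ends for 53462 genes (98.0%), not including Nfkb2, whose listed start and end differ. Listed lengths span the exons of all transcripts for most of the genes described and weigh on levels per length.

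Samples were grouped by their titles and tissue labels. Counts were filtered with filterByExpr, scaled by TMM and fitted in edgeR 4.0.16 (R 4.3.3) with the 9 libraries in 1 quasi-likelihood model without covariates. Benjamini-Hochberg adjustment was made over 16526 genes with a threshold of 0.05. On simulated data for PVASCs against Sub-ASCs (16526 genes), the procedure recovered 10 of 50 genes changed 1.25-fold and 32 of 50 at 1.5-fold. It recovered 42 of 50 at 2-fold and 49 of 50 at 4-fold, and called 6 of 16326 unchanged genes. Most genes were unchanged there, whereas 70.4% were called between PVASCs and Sub-ASCs in the deposited data. Recovery with that many changed genes was not tested. Counts of libraries of a group differed by more than counting noise, so none was treated as a library deposited more than once, which does not show that they are separate cultures or animals. CPM, FPKM, shares and ratios were computed here with Python 3.11.15, and ratios were compared by exact permutation. Promoter windows were taken from RefSeq (GRCm38.p6). The CPM of 3 reads was calculated from the reads of the tested genes times the TMM factor of each library, and shows how depth varied between libraries.

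The genes, lists and tests were chosen with earlier results of these data known. All genes of the other Rel and IκB list and of the TNF family list were named. From the 5 other pathway lists, the 2 called genes with the largest change in PVASCs against Sub-ASCs and the 2 against Ab-ASCs were named. Other genes named from the pathway and marker lists, such as Il1b, Lyz2, Ptprc, Cd3e and Tek, fall outside this rule and were chosen after their values were seen. For likeness, the 2 genes with the highest r were named for each member. Alternatives were DESeq2 1.42.0, relative log expression (RLE) size factors, 2 other low-count filters, a fit of the compared groups only, a replicate block, a 2-fold limit and leaving out each library in turn.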

Additional observations from a re-analysis of the deposited data

How the results depend on the processing

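Against Sub-ASCs and against Ab-ASCs, 9 of the 10 genes were called in PVASCs under DESeq2, RLE size factors, both other filters, the fit of the compared groups, the replicate block and every omission of a library (9 to 9). For Ab-ASCs against Sub-ASCs, 8 were called, with 7 under DESeq2, 7 without a filter, 9 with at least 10 reads in every library, 8 with the replicate block and 7 to 10 when a library was left out. A limit of 2-fold left 5, 2 and 2 calls in the 3 comparisons. Same-numbered libraries did not deviate together (r of -0.05 to 0.10 over the pairs), so the numbers were not taken as pairs, and beyond Tnf and Nfkbia in Ab-ASCs against Sub-ASCs the replicate block changed no call among the 10 genes. Some other differences became calls under single settings. Bcl3 in PVASCs against Ab-ASCs was called with the replicate block (adjusted p = 0.0300), without Ab-ASC replicate 2 (0.0211) and without PVASC replicate 1 (0.0198), and Ltbr there without Ab-ASC replicate 2 (0.0184). Against Sub-ASCs, Tnfrsf11a was called with at least 10 reads (0.0439), in the fit of the compared groups (0.0449) and without PVASC replicate 1 (0.0255), and Nfkbid without PVASC replicate 2 (0.0399). Tnfsf12 in Ab-ASCs against Sub-ASCs was called with at least 10 reads (0.0345) and without Ab-ASC replicate 1 (0.00361).

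Signs turned only for differences that were not called. Nfkb2 in PVASCs against Sub-ASCs came to a log2 fold change of 0.013 with DESeq2, 0.012 with RLE, 0.0038 without a filter and 0.0017 in the fit of the compared groups, and ran from -0.025 to 0.040 without single libraries. Without single libraries, Nfkbiz in PVASCs against Sub-ASCs ran from -0.024 to 0.059, Traf1 in PVASCs against Ab-ASCs from -0.017 to 0.43 and Rel there from -0.10 to 0.35. Tnfrsf1a in PVASCs against Ab-ASCs was 0.0025 in the fit of the compared groups. For Ab-ASCs against Sub-ASCs, Nfkbie was -0.00015 with RLE, -0.039 with at least 10 reads, -0.0082 in the fit of the compared groups and -0.022 to 0.021 without single libraries, and Cd40 ran from -0.16 to 0.28. The cause was not tested. The direction of the differences in ratios between groups did not change when a library was left out. Raw count ratios and other lengths give the same differences by construction and are no check of them. The mean log2 ratio of Nfkb2 to Nfkb1 in Sub-ASCs turned from 1.14 to -0.35 with principal transcript lengths, chosen after seeing the data. Tnf rests on 12 to 77 reads per library.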

Other observations

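The 7 target genes that were higher in PVASCs than in Sub-ASCs, named here after their values were seen, were Il6, Lif, Csf1, Ptgs2, Bcl2l1, Gadd45b and Ier3. Ptgs2, the inducible cyclooxygenase, had 297 ± 3.71 CPM in PVASC, 595 ± 91.5 in Ab-ASC and 23.3 ± 2.34 in Sub-ASC cultures. Lif, a cytokine of the IL-6 family, had 80.8 ± 2.72, 426 ± 11.9 and 26.6 ± 1.36 CPM, and Il6 had 59.8 ± 1.56, 99.9 ± 10.3 and 37.2 ± 2.76 CPM. Of the 7, all except Bcl2l1, an inhibitor of apoptosis, were lower in PVASCs than in Ab-ASCs by edgeR's test. Bcl2l1 had 146 ± 4.79 CPM in PVASC, 146 ± 9.64 in Ab-ASC and 60.9 ± 3.88 in Sub-ASC cultures.

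Other targets, also named after their values were seen, were highest in Sub-ASCs. Irf1, a transcription factor shared with the interferon response, had 317 ± 15.6 CPM in Sub-ASCs, 22.1 ± 2.26 in Ab-ASCs and 15.2 ± 0.181 in PVASCs. Sod2, the mitochondrial superoxide dismutase, had 573 ± 8.48, 219 ± 15.9 and 67.7 ± 4.84 CPM in the same order, and Cxcl5, a neutrophil chemokine, 191 ± 1.46, 26.1 ± 2.80 and 8.51 ± 0.284 CPM.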
